A study of Mus musculus with 336 samples.

Results

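Retinoid handling was followed through 9 genes, named in a list and read by symbol in 3 tables of mRNA levels: Crabp1, Crabp2, Rbp4, Aldh1a1, Aldh1a2, Aldh1a3, Aldh1a7, Rarb and Rarg. All 9 were found among the 47642 genes that the tables hold together. The set was chosen by the level of its members in KO against WT fibroblasts, where Crabp1 was lost and Aldh1a7 gained, so the fibroblast difference between genotypes is given for every member as a description without a test. The 3 courses came from mice lacking Bmal1 (Bmal1-/-, KO) and wild-type mice (WT) of the C57BL/6 strain: mouse skin fibroblasts (MSF) grown to confluence, slices of adult liver kept in culture, and a shorter course of mouse liver. Both genotypes of MSF and slices had a pulse of 100 nM dexamethasone (15 min), a glucocorticoid used to align cellular clocks, and were collected from 48 h afterwards at 3 h steps, labelled CT00 to CT69. These courses hold 24 values per gene and genotype, 1 at each time, each called a library here. Every time has 3 runs, and the series design gives n = 3. Whether the runs are separate samples is not stated in the labels. The short course holds 12 libraries per genotype, 3 replicates at T00, T06, T12 and T24, and its samples carry the same treatment text, which speaks of cells and slices only; no age is given for it. How many mice, isolates or cultures stand behind a genotype is not stated. Genotype and isolate therefore cannot be told apart, and the p-values cover sample-to-sample spread that could be technical.

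Vitamin A travels in plasma as retinol bound to RBP4, which the liver secretes together with transthyretin. Inside cells retinol is oxidised to retinal and then, by retinal dehydrogenases of the ALDH1A family, to retinoic acid. CRABP1 and CRABP2 hold retinoic acid in the cytosol, CRABP1 toward breakdown and CRABP2 toward the nucleus, where the receptors RAR alpha, beta and gamma bind DNA with RXR partners and act on genes such as Rarb itself. In liver most retinoid is stored as esters in stellate cells, and fibroblasts of skin respond to retinoic acid made by themselves or their neighbours.

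The gene Rarb (chromosome 14, 16430839 to 16819156, minus strand, GRCm38) carries the textbook retinoic acid response element, a direct repeat of a receptor binding hexamer, and it is shown because Rarb was almost silent in fibroblasts that held abundant Rarg. The stretch lies at chr14:16575473-16575569 (minus strand, RefSeq promoters on GRCm38.p6), and capitals mark the repeat at positions -53 to -37 from the start site.
Rarb: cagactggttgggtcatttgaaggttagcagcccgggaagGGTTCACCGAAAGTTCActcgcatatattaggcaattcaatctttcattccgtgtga
A search of both strands for a pair of hexamers (each being AGGTCA or AGTTCA or GGTTCA or GGGTCA) in direct repeat with 5 bases between them found this match alone in 10 promoter windows of 7 members, and found it in 0.0974% of 32851 windows (32 windows). The hexamers and the spacing of the Rarb repeat were those searched for, so its match was given beforehand. Other spacings were not searched, so the search does not show that other members lack a response element. Each window runs from 250 bases before to 50 bases after a RefSeq start. The table held no window for Crabp2 and Aldh1a3. The letters CACGTG, an E-box of the kind BMAL1 and CLOCK bind, were in 0 of the 10 member windows and in 7.15% of all windows.

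Aldh1a1 and Aldh1a7 are neighbours on chromosome 19, 49487 bases apart and on opposite strands (Aldh1a1 at 20492715 to 20643465 on the plus strand, Aldh1a7 at 20692953 to 20727562 on the minus strand, GRCm38). Their promoters are shown because closely similar stretches at the start stood beside unlike levels. The downstream RefSeq start of Aldh1a1 (chr19:20601868-20602017, plus strand) and the start of Aldh1a7 (chr19:20727507-20727656, minus strand) were identical at 142 of the last 150 bases of their windows, or 94.7%. Over the full windows of 300 bases 77.5% of 285 aligned bases were identical. Capitals mark the 8 positions that differ.
Aldh1a1: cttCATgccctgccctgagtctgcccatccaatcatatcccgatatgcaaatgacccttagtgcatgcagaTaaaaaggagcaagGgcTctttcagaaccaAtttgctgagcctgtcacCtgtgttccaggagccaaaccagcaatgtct
Aldh1a7: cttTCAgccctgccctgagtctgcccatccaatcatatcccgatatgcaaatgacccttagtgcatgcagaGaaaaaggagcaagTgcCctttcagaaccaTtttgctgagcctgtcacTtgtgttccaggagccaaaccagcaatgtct
The coding sequences, 1503 bases each, were 91.6% identical, against 70.0% for Aldh1a1 and Aldh1a2 and 68.6% for Aldh1a1 and Aldh1a3 (GENCODE M21). Reads of 50 bases can fall on stretches that Aldh1a1 and Aldh1a7 share. This holds for 151 of the 2309 windows of 50 bases in the Aldh1a1 transcript (6.54%) and for 151 of the 2017 in that of Aldh1a7 (7.49%), while 0 such windows were shared by other pairs of members. How reads matching both were assigned is not given in the sources used here. If every shared read of Aldh1a1 had gone to Aldh1a7, these would come to 3.19 FPKM in WT fibroblasts, above the 0.659 FPKM listed for Aldh1a7 there, but to 8.33% of its mean in KO fibroblasts. In the same way they would come to 54.5% of the Aldh1a7 mean in KO and 57.3% in WT slices, and to 34.9% in KO and 31.4% in WT liver of the short course, so low levels of Aldh1a7 are the less certain ones. Shared reads of Aldh1a7 would come to at most 5.88% of Aldh1a1, in KO fibroblasts. Coding bases 317 to 376 hold 16 differences, the most of any stretch of 60 bases, and are given with the differing bases in capitals.
Aldh1a1: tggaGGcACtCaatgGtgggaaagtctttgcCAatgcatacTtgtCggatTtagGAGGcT
Aldh1a7: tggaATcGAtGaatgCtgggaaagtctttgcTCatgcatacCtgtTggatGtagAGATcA

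Levels are FPKM, fragments scaled by transcript length and by the mapped fragments of the library, and fitted differences are KO minus WT on the log2(FPKM + 1) scale, which understates the change of low genes. The tables were normalised separately, so a level in 1 course set beside another is a description. Depth is unknown because the files hold no counts. Arntl, the symbol of Bmal1, measured 5.67 to 7.84 FPKM in KO against 8.79 to 11.9 FPKM in WT fibroblasts, 2.57 to 5.82 against 3.08 to 7.61 FPKM in slices and 1.51 to 3.31 against 0.126 to 3.05 FPKM in the short course. A level per gene does not show whether an exon is missing, so it does not check the genotype labels. The fibroblast label fitted its markers: Dcn had a mean of 3817 FPKM in KO and 1046 FPKM in WT cells, Thy1 89.2 and 507 FPKM, Pdgfra 161 and 439 FPKM, and the 8 hepatocyte markers summed to at most 0.743 FPKM in KO and 0.293 FPKM in WT libraries. Markers of other cell types also differed between the fibroblasts of the genotypes. The 7 mesothelial markers summed to between 54.4 and 134 FPKM in KO and between 7.50 and 14.5 FPKM in WT cells. In both genotypes that sum was mostly Krt19, at means of 79.5 FPKM in KO and 7.60 FPKM in WT cells. Upk3b had 1.14 FPKM in KO and 0.00576 FPKM in WT cells. Msln, of the same list, went the other way, at 1.09 FPKM in KO and 2.09 FPKM in WT cells, lower in KO at 23 of 24 times. The 7 biliary markers summed to between 80.1 and 180 FPKM in KO and between 615 and 928 FPKM in WT cells. In WT cells that sum was mostly Spp1, at means of 15.4 FPKM in KO and 692.5 FPKM in WT cells. Krt19, counted there as well, and Sox9 (22.4 FPKM in KO, 17.4 FPKM in WT) were higher in KO cells. The 7 keratinocyte markers summed to between 1.01 and 2.04 FPKM in KO and between 9.11 and 15.0 FPKM in WT cells. In WT cells that sum was mostly Trp63, at means of 0.390 FPKM in KO and 10.9 FPKM in WT cells. The part of these marker genes in the member levels was not tested. In the slices the hepatocyte markers summed to between 1534 and 68931 FPKM in KO and between 1114 and 23575 FPKM in WT libraries. Of the slice libraries, KO CT09, CT27, CT39 and CT42 and WT CT66 and CT69 had low correlations with the rest and are called the 6 libraries that stand apart. They were picked after the values were seen, and KO CT66, at a median r of 0.871, lay below KO CT27, at 0.877. All 7 were therefore left out together as well.

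The retinoic acid binding proteins were the members lost in KO fibroblasts. Crabp1 (chromosome 9, 54764748 to 54773110, plus strand) had between 1.09 and 4.38 FPKM, with a median of 2.92, in KO fibroblasts, and between 295 and 751 FPKM, with a median of 495, in WT fibroblasts. It was the most abundant member in WT cells and the fifth in KO cells. The ratio of means was 182-fold, lower in KO cells at 24 of 24 times, and the fitted difference was -7.05 ± 0.05 (SE, 24 times). Crabp2 (chromosome 3, 87948666 to 87953376, plus strand) had between 0.231 and 1.84 FPKM, with a median of 0.607, in KO cells, and between 17.3 and 30.2 FPKM, with a median of 20.7, in WT cells. Its fitted difference was -3.80 ± 0.05, and the ranges of the genotypes did not overlap for either gene.

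Rbp4 and the ALDH1A pair on chromosome 19 were the members gained in KO fibroblasts. Aldh1a7 had between 78.6 and 151 FPKM, with a median of 94.0, in KO cells, and between 0.186 and 1.40 FPKM, with a median of 0.561, in WT cells. The ratio of means was 157-fold and the fitted difference 5.98 ± 0.04. Aldh1a1, the main retinal dehydrogenase of adult liver, had between 89.0 and 144 FPKM in KO cells (median 113) and between 30.7 and 49.7 FPKM in WT cells (median 42.2), a fitted difference of 1.41 ± 0.02. Aldh1a7 thus reached 93.7% ± 32.5 of the level of Aldh1a1 in KO cells but 1.61% ± 1.04 in WT cells (SD, n = 24 each). Rbp4 (chromosome 19, 38116629 to 38125281, minus strand) had between 5.92 and 11.5 FPKM in KO cells (median 8.89) and between 0.226 and 0.859 FPKM in WT cells (median 0.453), a fitted difference of 2.71 ± 0.05. All 3 were higher in KO cells at 24 of 24 times with no overlap of ranges. By size and adjusted p these 3 would count as higher, where 6.21% of all genes did, and Crabp1 and Crabp2 as lower, where 9.82% did, and nothing is read from these counts since this contrast chose the genes.

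Rarg (chromosome 15, 102234938 to 102257517, minus strand), the receptor gamma, was the receptor of this set that fibroblasts expressed. It had between 44.2 and 80.6 FPKM in KO cells (median 48.0) and between 24.0 and 44.4 FPKM in WT cells (median 30.6). It was higher in KO cells at 24 of 24 times, although the ranges touched, with a fitted difference of 0.77 ± 0.06. Rarb, whose response element is printed above, had between 0.126 and 0.353 FPKM in KO cells and between 0.113 and 0.309 FPKM in WT cells. Aldh1a2 (chromosome 9), the dehydrogenase of the embryo, reached at most 0.0719 FPKM in KO and 0.0201 FPKM in WT cells, and Aldh1a3 (chromosome 7), that of several epithelia, at most 0.488 and 0.372 FPKM. These 3 members did not reach a mean of 1 FPKM and entered no fit of this course, so 6 of 9 members were fitted for both genotypes together, 5 in KO cells alone (without Crabp2) and 4 in WT cells alone (without Rbp4 and Aldh1a7). The 2 highest Rarg values in KO cells, 80.6 FPKM at CT42 and 79.3 FPKM at CT57, stood apart from their neighbours in time.

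**Figure D1:**
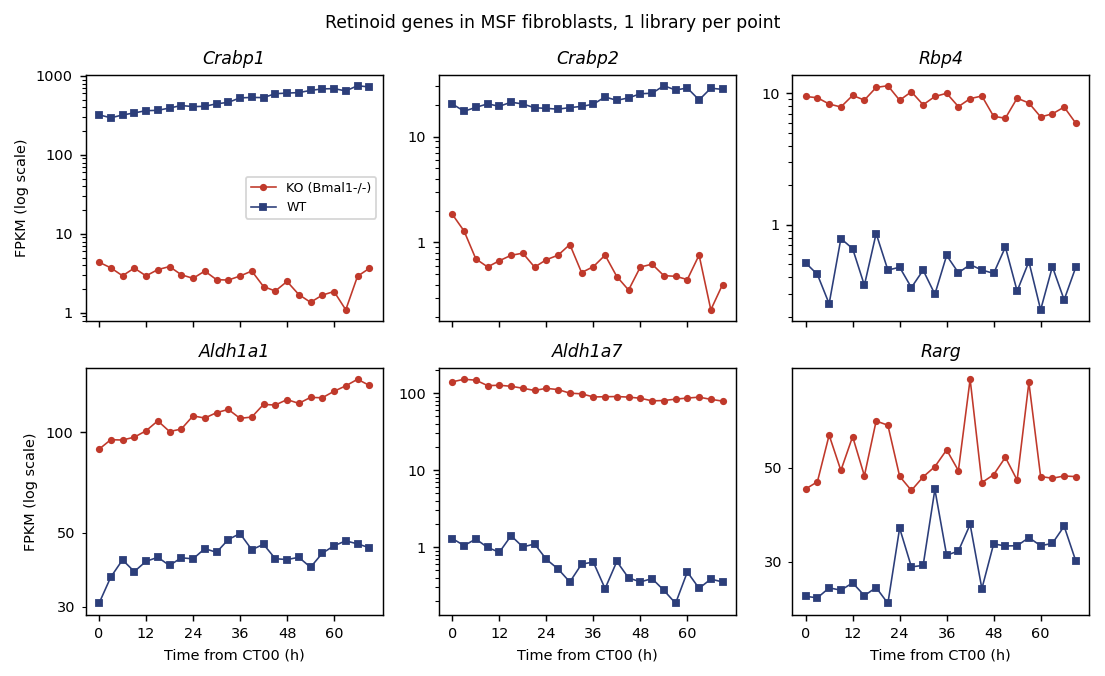
Levels of 6 members in MSF by time from CT00, FPKM on a log axis, KO as circles and WT as squares, 1 library per point. Crabp1 ends near 724 FPKM in WT cells and at 3.66 FPKM in KO cells, and the Aldh1a7 lines slope down in both genotypes.

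By rank, Aldh1a1, Aldh1a7 and Rarg led in KO fibroblasts, and their ranges overlapped from each to the next. Rbp4, Crabp1 and Crabp2 followed, with gaps on both sides of Rbp4. In WT fibroblasts Crabp1 led with a gap, then Aldh1a1, Rarg and Crabp2, each overlapping the next, and the other members lay at or under 1.40 FPKM in every library.

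Over the 3 days of the fibroblast course several members drifted, a measure that the choice of the genes did not use. Of the 5 members tested in KO cells 1 rose and 3 fell, where 14.4% of all genes rose and 11.9% fell by the same test (limma, adjusted p below 0.05). Of the 4 tested in WT cells all 4 rose, where 14.5% of all genes rose and 16.6% fell. Crabp1 rose in WT cells by 0.47 ± 0.02 per 24 h on the log2 scale (SE, adjusted p = 1.18e-14). Its daily means in WT cells were 352 ± 41.6, 489 ± 67.4 and 671 ± 50.9 FPKM (SD, n = 8 times each). In KO cells Crabp1 fell by 0.29 per 24 h (adjusted p = 0.00116), with daily means of 3.51 ± 0.51, 2.71 ± 0.53 and 2.09 ± 0.86 FPKM. That call was lost without day 1, at a slope of -0.27 (adjusted p = 0.378). The difference between the courses, tested as an interaction, was -0.75 ± 0.06 per 24 h (adjusted p = 1.26e-12).

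Crabp2 followed Crabp1 in WT cells, where it rose by 0.22 ± 0.03 per 24 h (adjusted p = 2.41e-05), a call that was lost without day 3 (adjusted p = 0.391). Its daily means were 0.903, 0.638 and 0.502 FPKM in KO cells and 19.5, 20.5 and 27.01 FPKM in WT cells. The fitted difference of its courses was -0.40 ± 0.06. Crabp2 passed the filter through WT cells alone, so no test of that difference is given. In KO cells Aldh1a1 and Aldh1a7 went opposite ways. Aldh1a1 rose by 0.21 ± 0.01 per 24 h (adjusted p = 7.20e-12), with daily means of 98.4 ± 5.84, 115 ± 4.55 and 132 ± 7.69 FPKM. Aldh1a7 fell by 0.31 per 24 h (adjusted p = 1.46e-09), with daily means of 129 ± 15.2, 97.6 ± 10.4 and 83.1 ± 3.58 FPKM. The level of Aldh1a7 was 157% of that of Aldh1a1 at CT00 and 56.9% at CT69 in KO cells.

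In WT cells Aldh1a1 rose by 0.09 per 24 h (adjusted p = 0.00853) and Rarg by 0.17 (adjusted p = 0.00363). Both slopes turned below 0 and were not called without day 1, at -0.03 and -0.02. Rbp4 fell in KO cells by 0.16 per 24 h (adjusted p = 0.00893), a call that was lost without day 1 at a steeper slope (-0.26, adjusted p = 0.0683) and without day 3 (-0.02, adjusted p = 0.907). Of the 6 interactions fitted, those of Crabp2, Rbp4 and Aldh1a7 come from members that passed the filter through 1 genotype alone. No call is read from these. Among the other members Aldh1a1 was called higher (0.12, adjusted p = 0.000866) and Crabp1 lower, where 14.9% of all genes were higher and 11.5% lower. The Aldh1a1 interaction was 0.004 without day 3 (adjusted p = 0.978). The Rarg interaction missed the threshold at -0.19 (adjusted p = 0.0527). It was called after median-of-ratios rescaling (-0.198, adjusted p = 0.0395) and without day 2 (-0.195, adjusted p = 0.021), and was 0.015 without day 1 (adjusted p = 0.974). The fitted Aldh1a7 interaction was 0.01, and 0.42 with a pseudocount of 0.1, where its WT levels are at most 1.40 FPKM. Its daily means in WT cells were 1.12, 0.518 and 0.338 FPKM.

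Over the 24 libraries of each genotype the log2 levels of Aldh1a1 and Aldh1a7 were compared in 4 relations, whose time points share the drift of their course. The permutations shuffled the time points freely although levels drift. Before a line in time was taken, their p-values therefore cannot separate a relation from 2 trends. In KO fibroblasts Pearson's r was -0.89 and Spearman's rho -0.91 (adjusted permutation p = 1.33e-05 and 4.00e-05), and r was -0.88 without the 2 libraries farthest from the median of Aldh1a1. After a line in time was taken from each gene r was 0.35 (adjusted permutation p = 0.124), and the negative relation was no longer there. In WT fibroblasts r was -0.51 and rho -0.43 (adjusted permutation p = 0.00737 and 0.0382), -0.47 without the 2 farthest libraries, and 0.03 after the line was taken (adjusted permutation p = 0.873). In slices r was 0.80 in KO and 0.88 in WT libraries, and rho 0.69 and 0.85 (adjusted permutation p of r = 1.33e-05 in each, the raw p of 1e-05 being the smallest the permutations can give, and of rho 0.0004 and 4.00e-05). It was 0.83 and 0.96 after the line was taken (adjusted permutation p = 2.00e-05 in each), and 0.75 and 0.83 without the 2 farthest libraries. Shared reads of Aldh1a1 could come to 54.5% of the Aldh1a7 mean in KO and 57.3% in WT slices. In WT fibroblasts they could come to 3.19 FPKM, above every Aldh1a7 level there. The hepatocyte markers also varied widely between slices. The part of shared reads and of cell content in these relations was not tested.

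**Figure D2:**
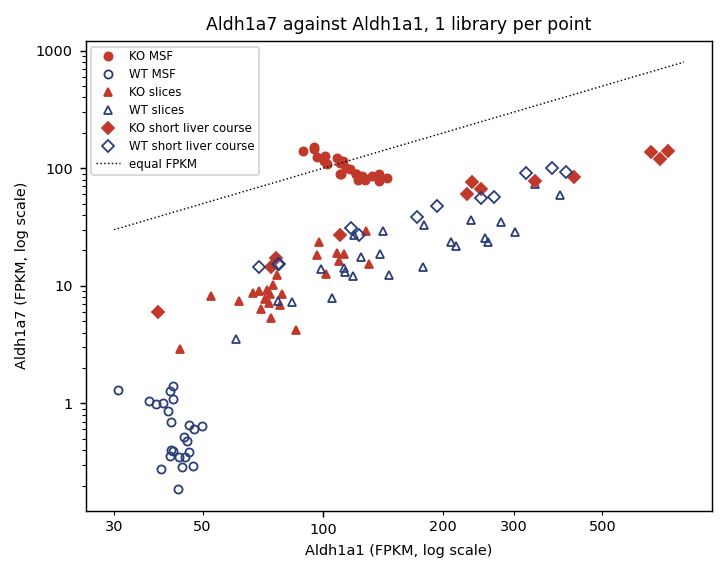
Aldh1a7 against Aldh1a1 in each library, both in FPKM on log axes, KO filled and WT open, with circles for MSF, triangles for slices, diamonds for the short course and a dotted line of equal FPKM. KO fibroblasts lie along that line and slope down, WT fibroblasts lie at or under 1.40 FPKM of Aldh1a7, and the liver libraries of both genotypes form 1 rising band.

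The genes most like each member in the 48 fibroblast libraries, after the mean of each genotype was taken away, were Tead2 (r = 0.88) and Dkk2 (r = 0.87) for Crabp1, and Atpif1 (r = 0.82) and Tubb2b (r = 0.77) for Crabp2. For Aldh1a1 they were Selenop (r = 0.94) and Dcn (r = 0.92), for Aldh1a7 S1pr3 and Npr3 (r = 0.90 each) and for Rarg Rps6ka2 (r = 0.62) and Ethe1 (r = 0.58). These libraries share the drift over the days, which enters every r.

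No member was called for a 24 h wave. Calls came to 0 of 5 members in KO and 0 of 4 in WT fibroblasts, where 0% and 0.0341% of all genes were called by limma, and 0 members had an unadjusted p below 0.05. The difference of rhythms was called for 0 of 6 members against 0.00664% of all genes. Of these Crabp2 passed the filter through WT cells alone, and Rbp4 and Aldh1a7 through KO cells alone. Nothing is read from their results. In slices 0 of 7 members in KO and 0 of 6 in WT tissue were called, where 11.2% and 1.98% of all genes were, again with 0 at an unadjusted p below 0.05. Those shares depended on the libraries kept. Without the 6 libraries that stand apart the calls over all genes went from 1594 to 26 in KO and from 289 to 56 in WT slices. In KO slices 0 genes were called without day 2 or without day 3. The difference of rhythms in slices was called for 0 of 7 members, with 4.13% of all genes. Over all genes its calls went from 602 to 34 without the 6 libraries. Aldh1a2, among the 7, passed the filter through KO slices alone, so nothing is read from its result. The widest waves fitted were those of Aldh1a7 (0.52 ± 0.26, adjusted p = 0.464) and Rbp4 (0.41 ± 0.16, adjusted p = 0.283) in WT slices, and neither passed the test.

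In liver slices the members had another order, led by Rbp4 and Aldh1a1 in both genotypes. The median difference over all genes was -0.34, and -0.0025 after median-of-ratios rescaling, which moved the calls over all genes from 172 higher and 590 lower to 305 higher and 214 lower. Of the 7 members tested, among them Aldh1a2 that passed the filter through KO slices alone, 0 passed the adjusted p of 0.05 together with a difference of 1, where 1.18% of all genes were called higher and 4.05% lower. By adjusted p alone the other 6 passed, but so did 72.8% of all genes. Kupffer cell markers fell in KO slices in 7 of 7 genes, their sum lying between 47.6 and 218 FPKM in KO and between 92.8 and 1948 FPKM in WT slices. Stellate cell markers, of the cells that store retinoid, had 1 of 8 tested lower. Their sum lay between 87.3 and 465 FPKM in KO and between 305 and 791 FPKM in WT slices and was mostly Ecm1, at a mean of 225 FPKM in KO and 412 FPKM in WT slices. Lrat, which esterifies retinol, averaged 0.316 and 1.31 FPKM in KO and WT slices, Reln 5.34 and 5.29 FPKM, Des 8.56 and 9.18 FPKM, and Colec11 4.25 and 2.61 FPKM. Pdgfrb averaged 1.90 and 6.42 FPKM, Hand2 4.84 and 6.58 FPKM, and Lhx2 0.998 and 1.84 FPKM. Hgf averaged 0.468 and 1.94 FPKM and Ngfr 0.164 and 0.272 FPKM. By time point Des was lower in KO at 21 of 24 times and Reln at 17 of 24, while Colec11 was higher at 18 of 24. Fibroblast markers were lower in 5 of 8 genes, and hepatocyte markers had 2 higher and 1 lower of 8. In whole tissue fewer cells of a type and less RNA per cell cannot be told apart, and the part of these shifts in the values that follow was not tested.

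Rbp4, made by hepatocytes, had between 141 and 5249 FPKM, with a median of 705, in KO slices and between 87.9 and 1528 FPKM, with a median of 534, in WT slices. The difference was 0.50 ± 0.22 as deposited (adjusted p = 0.0405) and 0.90 after rescaling (adjusted p = 0.000868). Its highest value came from KO CT09, where the hepatocyte markers summed to 68931 FPKM, the highest of the KO slices. Without that library the difference was 0.40 (adjusted p = 0.0745) and without the 6 libraries that stand apart 0.23 (adjusted p = 0.280). The genes most like Rbp4 over the 48 slice libraries were Ttr, its partner in plasma (r = 0.98), and Asgr2 (r = 0.98).

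The aldehyde dehydrogenases of chromosome 19 were lower in most KO slices, the opposite side from fibroblasts. Aldh1a1 had between 44.0 and 131 FPKM, with a median of 75.8, in KO slices and between 60.4 and 393 FPKM, with a median of 144, in WT slices. It was lower in KO at 19 of 24 times, with a difference of -0.96 ± 0.16 (adjusted p = 6.82e-07), which came to -0.57 after rescaling (adjusted p = 0.00260) and to -1.12, past the size limit, without the 6 libraries (adjusted p = 2.21e-08), or -1.095 without all 7 (adjusted p = 6.87e-08). By day it had means of 86.0 ± 19.8, 91.9 ± 24.6 and 73.3 ± 21.1 FPKM in KO slices and 114 ± 31.2, 224 ± 104 and 198 ± 81.1 FPKM in WT slices (SD, n = 8 times each). Aldh1a7 had between 2.89 and 29.3 FPKM, with a median of 8.88, in KO slices and between 3.56 and 73.5 FPKM, with a median of 20.2, in WT slices. It was lower in KO at 21 of 24 times, with a difference of -0.85 ± 0.23 (adjusted p = 0.00116), -0.48 after rescaling (adjusted p = 0.0828) and -1.16 without the 6 libraries (adjusted p = 1.67e-05) or all 7 (adjusted p = 2.39e-05). Aldh1a7 stood at 13.1% ± 4.71 of Aldh1a1 in KO and 12.5% ± 4.55 in WT slices (SD, n = 24 each). The genes most like Aldh1a7 were Grhpr (r = 0.92) and Tkfc (r = 0.90), and those most like Aldh1a1 were Aldh1a7 itself (r = 0.85) and Rarres1 (r = 0.83). Shared reads could enter the r of Aldh1a1 with Aldh1a7, and their part was not tested.

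Crabp2 was higher in most KO slices, where fibroblasts had it lower. It had between 0.832 and 8.60 FPKM, with a median of 2.93, in KO slices and between 0.193 and 4.15 FPKM, with a median of 1.39, in WT slices, and was higher in KO at 22 of 24 times. The difference was 0.86 ± 0.16 (adjusted p = 1.16e-05), and it passed the size limit after rescaling (1.12, adjusted p = 4.34e-07) and with a pseudocount of 0.1 (1.27, adjusted p = 1.19e-05). Without the 6 libraries it was 0.75 (adjusted p = 0.000181). Aldh1a2 averaged 1.43 ± 1.42 FPKM in KO and 0.602 ± 0.434 FPKM in WT slices (SD, n = 24 each) and was higher in KO at 21 of 24 times. It passed the filter through the KO libraries alone, so no test of its difference is given, and without the 6 libraries its mean was below the filter. Neither receptor was called. Rarb, which reaches the level of 1 FPKM in slices, averaged 1.74 ± 1.45 FPKM in KO and 2.23 ± 0.63 FPKM in WT slices (-0.31 ± 0.11, adjusted p = 0.00819, and -0.06 after rescaling, adjusted p = 0.682). Without the 6 libraries that difference was -0.22 (adjusted p = 0.0725). Its highest value, 8.22 FPKM, came from KO CT06, where the stellate markers summed to 452 FPKM and the fibroblast markers to 970 FPKM, each second highest of the KO slices, and the skeletal muscle markers to 79.6 FPKM, the highest, against a KO median of 4.66 FPKM. Their part in that value was not tested. Rarg averaged 10.6 ± 4.04 FPKM in KO and 12.5 ± 1.74 FPKM in WT slices, with a difference of -0.28 ± 0.09 (adjusted p = 0.00742) that turned to 0.09 after rescaling (adjusted p = 0.428) and was -0.26 without the 6 libraries (adjusted p = 0.00885). Its most alike genes were Lamb2 (r = 0.74) and Dock9 (r = 0.71). Crabp1 was listed at 0 in 21 of 24 KO and 21 of 24 WT slices and reached at most 0.0909 and 0.252 FPKM, and Aldh1a3 at most 0.344 and 0.520 FPKM.

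**Figure D3:**
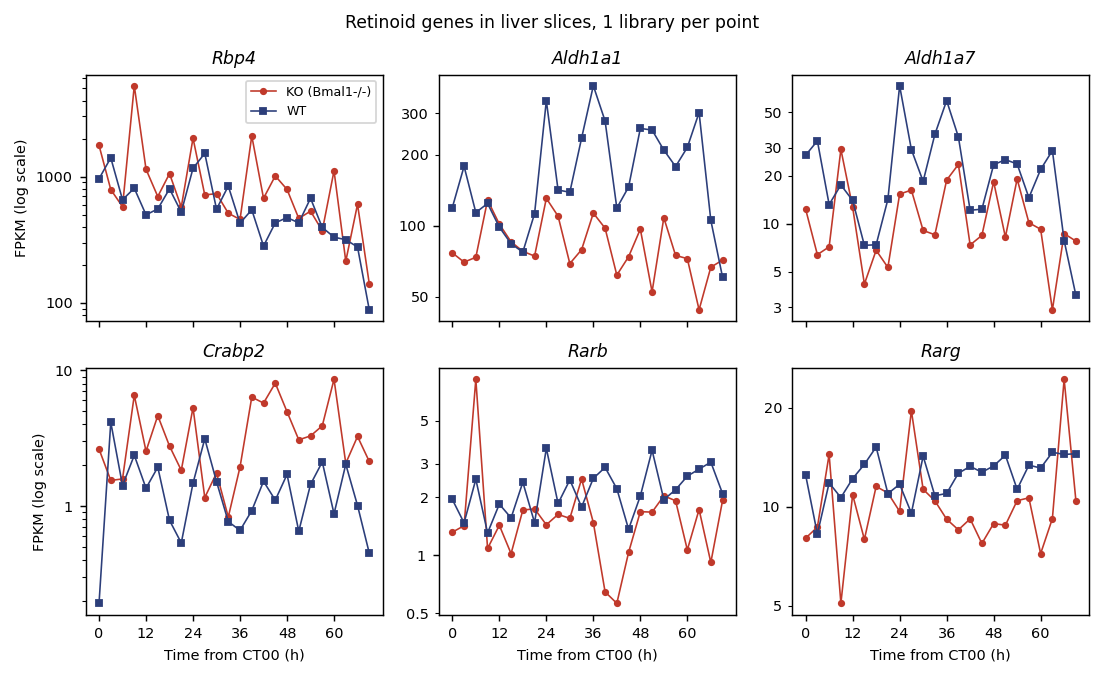
Levels of 6 members in liver slices by time from CT00, FPKM on a log axis, KO as circles and WT as squares, 1 library per point. The WT lines of Aldh1a1 and Aldh1a7 lie above the KO lines at 19 and 21 of 24 times, and Rbp4 declines in both genotypes.

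By its daily means Rbp4 declined over the 3 days in culture in slices of both genotypes. With all libraries kept, the slope was called in WT tissue alone. In WT slices Rbp4 fell by 0.63 per 24 h (adjusted p = 0.00236), 1 of 6 members tested, where 9.84% of all genes rose and 10.3% fell. That call was lost without day 3 (-0.34, adjusted p = 0.525) and held without the 6 libraries (-0.46, adjusted p = 0.0177). In KO slices the slope was -0.72 ± 0.22 and missed the threshold (adjusted p = 0.0566), so that 0 of 7 members were called by limma beside 1.96% of all genes higher and 3.79% lower, with 1 of them at an unadjusted p below 0.05. It was called without KO CT06 (-0.79, adjusted p = 0.0343) and not without the 6 libraries (-0.56, adjusted p = 0.0647). The daily means of Rbp4 were 1481 ± 1573, 1027 ± 658 and 529 ± 314 FPKM in KO and 776 ± 302, 721 ± 429 and 373 ± 169 FPKM in WT slices. The hepatocyte markers had daily median sums of 11517, 9019 and 5539 FPKM in KO and 9875, 8486 and 5247 FPKM in WT slices. Their part in the decline of Rbp4 was not tested. The difference of slopes was called for 0 of 7 members by limma, where 0.0275% of all genes were higher and 0.0412% lower. Of the 7 members 1, Aldh1a1 (-0.40 ± 0.19), had an unadjusted p below 0.05 (adjusted p = 0.487). Aldh1a2, also among the 7, passed the filter through KO slices alone, so nothing is read from its result.

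In the short liver course the hepatocyte members fell with time in both genotypes. Of the 5 members tested 3, Aldh1a1, Aldh1a7 and Rbp4, were called for time in KO liver and the same 3 in WT liver, where 72.2% and 64.4% of all genes were called. At T00 in KO liver 1 run of replicate 3 carries T06 in a label while its title says T00, and it was taken as T00. Aldh1a1 had 732, 695 and 660 FPKM at T00 in KO liver and 323, 375 and 406 FPKM at T00 in WT liver. At T24 it had 111, 38.6 and 74.3 FPKM in KO liver and 77.0, 77.8 and 68.97 FPKM in WT liver. The genotypes did not overlap at T00 and overlapped at T24. The change at T24 against T00 was -3.33 ± 0.44 in KO (adjusted p = 2.72e-05) and -2.28 ± 0.44 in WT liver (adjusted p = 0.00186).

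Aldh1a7 had 141, 120 and 138 FPKM at T00 in KO liver and 90.9, 99.8 and 92.5 FPKM at T00 in WT liver, without overlap. At T24 its means were 15.8 ± 10.6 FPKM in KO and 15.0 ± 0.54 FPKM in WT liver (SD, n = 3 each). The change was -3.21 ± 0.46 in KO (adjusted p = 4.33e-05) and -2.57 ± 0.46 in WT liver (adjusted p = 0.000823). Rbp4 had 2674, 2113 and 2038 FPKM at T00 in KO liver and 2390, 3300 and 2979 FPKM at T00 in WT liver. At T24 it had 1082, 379 and 784 FPKM in KO liver and 1237, 1386 and 1451 FPKM in WT liver, so that the genotypes overlapped at T00 and did not at T24. Its change was -1.72 ± 0.31 in KO (adjusted p = 0.000750) and -1.08 ± 0.31 in WT liver (adjusted p = 0.0303). The WT call was lost when 1 of 5 libraries was left out, namely replicate 2 or 3 of WT T00 or any 1 replicate of WT T24 (adjusted p from 0.0511 to 0.105), and with no filter on low values (adjusted p = 0.0982). The median sum of the hepatocyte markers was 19305, 13585, 16847 and 11329 FPKM at T00, T06, T12 and T24 in KO liver, and 15584, 27798, 21357 and 15361 FPKM in WT liver. Biliary markers had median sums of 40.1 FPKM at T00 and 371 FPKM at T06 in KO liver, and of 39.03 FPKM at T00 and 379 FPKM at T06 in WT liver. Mesothelial markers had 3.32 FPKM at T00 and 38.4 FPKM at T06 in KO liver, and 2.71 FPKM at T00 and 45.4 FPKM at T06 in WT liver. The part of these sums in the members' course was not tested.

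The test of a difference between the courses made no call among the members. It was called for 0 of 5 members by limma, with 0 at an unadjusted p below 0.05, where 1.75% of all genes were called. Averaged over the 4 times, Rbp4 was lower in KO liver, with a difference of -0.55 ± 0.16 (adjusted p = 0.0184), the 1 call among 5 members, where 7.75% of all genes were higher and 11% lower. Rbp4 averaged 1462 ± 641 FPKM in KO and 2018 ± 671 FPKM in WT liver (SD, n = 12 each). With 1 mean per genotype and replicate number, 3 against 3, it was not called (adjusted p = 0.189). Aldh1a1 averaged 322 ± 252 FPKM in KO and 204 ± 119 FPKM in WT liver and was not called (0.38 ± 0.22, adjusted p = 0.252). It was called without replicate 2 of KO T12 (0.54, adjusted p = 0.0339). Aldh1a7 averaged 69.1 ± 47.1 FPKM in KO and 48.7 ± 31.2 FPKM in WT liver (0.32 ± 0.23, adjusted p = 0.362). Aldh1a7 stood at 22.3% ± 4.71 of Aldh1a1 in KO and 23.1% ± 2.75 in WT liver (SD, n = 12 each).

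Rarb averaged 1.40 ± 0.43 FPKM in KO and 1.45 ± 0.42 FPKM in WT liver (-0.03 ± 0.09, adjusted p = 0.839), and Rarg 2.17 ± 0.60 and 2.03 ± 0.65 FPKM (0.07 ± 0.10, adjusted p = 0.672). Crabp1 was listed at 0 in all 12 KO and all 12 WT libraries. Crabp2 reached at most 0.309 FPKM in KO and 0.209 FPKM in WT liver, Aldh1a2 at most 0.936 and 0.839 FPKM. Aldh1a3 stayed under 1 FPKM in every library of both genotypes but replicate 2 of WT T12, which had 3.08 FPKM. Rbp4 led the order in both genotypes, followed by Aldh1a1, Aldh1a7, Rarg and Rarb.

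**Figure D4:**
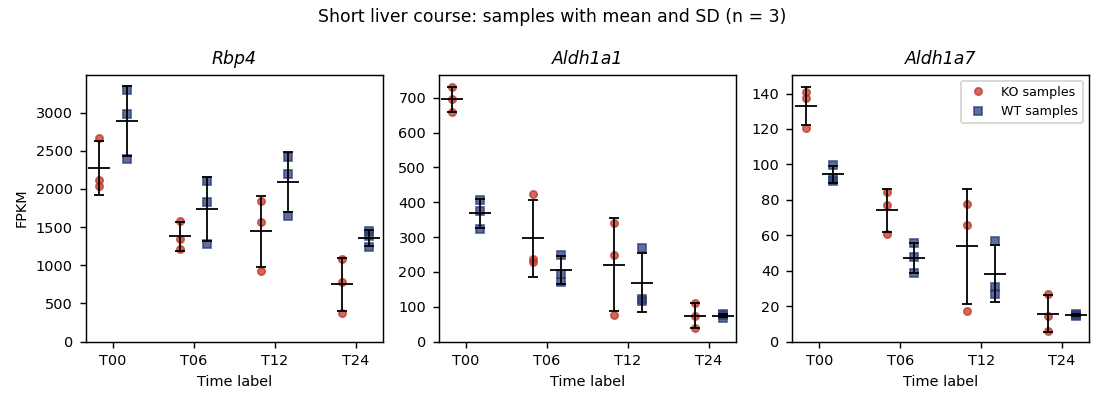
Rbp4, Aldh1a1 and Aldh1a7 in the short liver course in FPKM at T00, T06, T12 and T24, KO circles left of WT squares, with the mean and SD of 3 samples. Aldh1a1 at T00 lies between 660 and 732 FPKM in KO and between 323 and 406 FPKM in WT samples, and both genotypes fall by T24.

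The wider pathway was read from 50 other genes in 7 lists. In fibroblasts 24 of them were tested, 5 were higher and 3 lower in KO cells, beside the same 6.21% and 9.82% of all genes, with a median difference of 0.25 beside -0.04 over all genes. Among the higher genes were Nrip1, a corepressor of retinoid receptors (1.41), Tgm2, a transglutaminase induced by retinoic acid (1.30), Rdh5, a retinol dehydrogenase (1.12), and Lipe, a lipase that can hydrolyse retinyl esters (1.07). The lower genes were Rarres2, which encodes chemerin and responds to retinoids (-1.62), Adh7, an alcohol dehydrogenase that oxidises retinol (-1.35), and Scarb1, a receptor that takes up carotenoids (-1.28). These values come from the contrast that chose the members, so nothing is read from their count. Interconversion of retinol and retinal had 1 higher and 1 lower of 11 tested. No gene of retinoic acid breakdown passed the filter over both genotypes. Of these Cyp26b1, a hydroxylase of retinoic acid, had at most 0.299 FPKM in KO and between 0.707 and 2.55 FPKM in WT cells, lower in KO at 24 of 24 times, and was picked after its values were seen.

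In slices 34 pathway genes were tested, with 4 higher and 4 lower in KO tissue, where 1.18% of all genes were higher and 4.05% lower. Their median was -0.28 beside -0.34 over all genes. Among the lower genes were Tgm2 (-1.54), Bco1, which cleaves beta-carotene (-1.40), and Fabp5, a fatty acid binding protein that also binds retinoic acid (-1.05). Rdh7 (1.61) and Rdh16f2 (1.45), short-chain retinol dehydrogenases, Rarres2 (1.26) and Ttr (1.08) were higher. Tgm2 averaged 81.2 ± 29.9 FPKM in KO and 235 ± 75.8 FPKM in WT slices (SD, n = 24 each), and Tgm2 and Rarres2 each had the opposite sign in fibroblasts. After rescaling 6 were higher and 2 lower, where 305 and 214 of all 14572 genes tested were. Fabp5 was then at -0.69, under the size limit, and Aldh8a1 (1.04) and Rarres1 (1.11) were added above it.

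In the short course 38 were tested, 5 higher and 7 lower in KO liver, where 7.75% of all genes were higher and 11% lower. Their median was -0.17 beside -0.006 over all genes. The 4 largest falls were Rdh9, a retinol dehydrogenase (-1.47 ± 0.17, adjusted p = 5.73e-06), Adh7 (-1.36 ± 0.21), Bco1 (-1.19 ± 0.15) and Cyp26a1, the hydroxylase that degrades retinoic acid (-1.10 ± 0.34, adjusted p = 0.0287). Cyp26a1 averaged 12.8 ± 9.74 FPKM in KO and 25.7 ± 12.4 FPKM in WT liver (SD, n = 12 each). The 4 largest rises were Rdh11 (0.91 ± 0.13), Rarres1 (0.72 ± 0.22), Dhrs9 (0.63 ± 0.18) and Bco2, a second carotenoid oxygenase (0.61 ± 0.10). With 1 mean per genotype and replicate number 2 were higher and 4 lower, and without replicate 2 of KO T12 8 were higher. Without replicate 2 of WT T24 3 were higher. Of binding, transport and uptake 0 of 4 genes were called by limma, and of receptors and corepressors 0 of 6, beside the same shares of all genes. Over time 5 pathway genes rose and 24 fell in KO liver and 6 rose and 17 fell in WT liver, each at its time of largest change against T00. Over all 12547 genes 4313 rose and 4749 fell in KO liver, and 4019 rose and 4062 fell in WT liver.

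**Figure D5:**
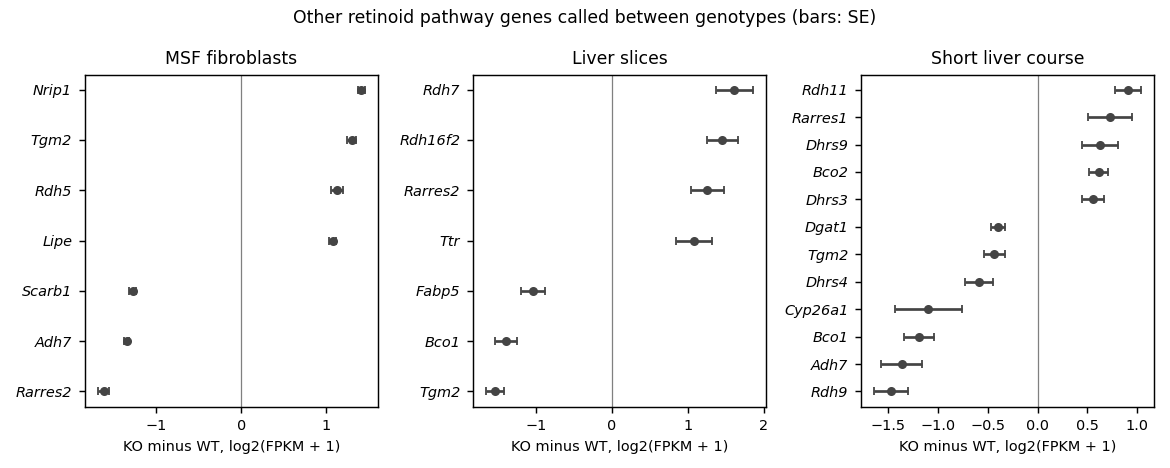
Differences, KO minus WT on the log2(FPKM + 1) scale, with SE bars, for called pathway genes in MSF (7 genes shown), slices (7 genes shown) and the short course (12 genes), ordered from highest to lowest. Tgm2 is at 1.30 in MSF, -1.54 in slices and -0.43 in the short course.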

How the data were processed

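Poly(A) RNA was read in 336 runs (single-end, 50 bases). TopHat2 2.1.0, Cuffdiff and the build GRCm38 are named in the submitters' processing notes. The authors deposited FPKM per gene in 3 tables, 48 columns for MSF, 48 for slices and 24 for the short course, with the runs of a library in 1 column. How libraries were scaled against each other is not given in the sources used here. Column totals ranged from 793416 to 835682 FPKM in MSF, from 766546 to 2121560 in slices and from 479770 to 1013680 in the short course. Depth is unknown, so no counting interval is given. The series design gives n = 3 at each time, but the long tables hold 1 value. No FPKM column was left unused (0 columns). In MSF 118 genes with values marked FAIL (447) or HIDATA (241) were removed, among them Col1a1, Col1a2 and Col3a1, but no member. Gene IDs were matched to symbols for 47219 of 47633 genes in MSF.

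Values were fitted as log2(FPKM + 1) with limma 3.58.1 in R 4.3.3 (variance trend), keeping genes that averaged 1 FPKM or more over a fit's libraries, adjusted by Benjamini and Hochberg over all genes tested. The long courses had 24 h cosine and sine and linear time, each with genotype. There a genotype call needed an adjusted p under 0.05 together with an absolute difference of 1 or more; all other calls used the adjusted p alone. Waves and time were tested by F tests on 2 and 3 degrees of freedom. The fits were tested on simulated data. Correlations had 100000 permutations, 2-sided, with an adjustment over 4 relations. Sequences came from RefSeq (GRCm38.p6) and GENCODE M21, read with Biopython 1.88.

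The members and lists were chosen with earlier results of these data known. Named were all 9 members, up to 4 higher and 4 lower called pathway genes by size in each genotype comparison (in MSF and the short course more are named in the text or plot, chosen after their values were seen), and the 2 genes most like each member of at least 5 FPKM in a long course. One pathway gene that enters the counts is not reported here.

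Alternatives were a pseudocount of 0.1, no filter, median-of-ratios rescaling, leaving out each day or library, a time point block, a replicate block, no linear term and 1 mean per replicate number. Leaving out slice libraries KO CT06, KO CT09, the 6 that stand apart or these with KO CT66, and both KO replicate 2 libraries of T12 and T24, was chosen after seeing the data.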

Additional observations from a re-analysis of the deposited data

Results flagged for a closer look

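The slopes over 3 days were flagged as different between KO and WT fibroblasts for 3 members by the interaction (limma). For Crabp1 the difference was -0.75 per 24 h on the log2 scale, with a fall in KO cells, where all libraries lay at or under 4.38 FPKM, and a rise in WT cells. For Crabp2 it was -0.40, with KO libraries at or under 1.84 FPKM, where the added 1 FPKM flattens slopes. Crabp2 passed the filter through WT cells alone, so nothing is read from its flag. For Aldh1a1 it was 0.12, a rise in both genotypes that was steeper in KO cells, and 0.004 without day 3 (adjusted p = 0.978).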

How the results depend on the processing

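Of the counts of members or pathway genes under an alternative, 301 stayed within 1.5 times of the count reported and 25 did not. The 301 include counts of 0 that stayed at 0, and moves from 3 to 2 or 4. Members called for time in WT liver ranged from 2 to 4 when each library was left out. The tally therefore does not show how firm a single call is. In MSF the pathway genes lower were 5 without day 1, and the members called for linear change were 2 in KO and 2 in WT cells without day 1. In slices 1 member was called for genotype after rescaling, 1 with a pseudocount of 0.1, 1 without day 1 and 2 without the 6 libraries that stand apart, also without KO CT66 as a seventh, where 2 pathway genes were higher, and 2 pathway genes were lower after rescaling. For linear change in slices 1 member was called in KO without CT06, and in WT 2 without day 1, 2 without the 6 or the 7 libraries and 0 without day 3. In the short course 0 members were called for genotype with 1 mean per replicate number or with no filter, and 3 without both KO replicate 2 libraries of T12 and T24, where 11 pathway genes were higher; these libraries were picked for their low Aldh1a1 and Aldh1a7, so the calls support nothing. With 1 mean per replicate number 2 pathway genes were higher and 4 lower. Leaving out each of the 24 libraries gave 1 to 2 members, 3 to 8 pathway genes higher and 6 to 9 lower. With a replicate block 1 member was called for genotype, 6 pathway genes were higher and 11 lower, and 3 members were called for time in each genotype. The block was no part of the fit: same-numbered libraries of the genotypes correlated at r of -0.11 to 0.089, and within a genotype at -0.081 to 0.22, with 6 of 36 pairs over 0.1 against 2 of 72 with different numbers, so whether a number follows an animal over time is not settled. Slopes of opposite sign, none called, were those of the interaction for Aldh1a7 after rescaling (-0.00067) and without day 1 (-0.054), for Rarg without day 1 (0.015) and Rbp4 without day 3 (0.066), and in WT cells those of Aldh1a1 (-0.033) and Rarg (-0.019) without day 1. In slices the Rbp4 interaction was 0.045 without KO CT09, and Rarg differed by 0.091 after rescaling. In the short course Rarb differed by -0.074 to 0.014 when each library was left out, above 0 without replicate 2 of WT T00, and Rarg by -0.00046 without both KO replicate 2 libraries. The cause was not tested. Members under 1 FPKM cannot be compared, and low WT or KO levels in MSF make fitted sizes depend on the pseudocount (-7.47 for Crabp1 and 7.22 for Aldh1a7 at 0.1).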
